A study of Macaca mulatta with 30 samples.

Results

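Posterior superior temporal cortex (STC, the macaque counterpart of Wernicke's area) was compared with the forelimb field of primary motor cortex (M1C) in 5 rhesus macaques. The comparison used the 20 arrays of these regions out of 30 in the series, 10 per region. The other 10 arrays came from ventrolateral prefrontal cortex (VFC). Left and right arrays were averaged per animal and region, and M1C was subtracted from STC within each animal, which gave 5 differences for each of 24292 tested probe sets. Total RNA from frozen post-mortem tissue was hybridised to Affymetrix arrays. Animals 1, 2 and 3 were females of 7.3, 5.5 and 8.6 years, and animals 4 and 5 were males of 4.2 and 2 years. The labels name no treatment, both regions came from the same brains, and sex and age go with animal. Where the interval between death and freezing was known, it did not exceed 6 h. Every level below is a log2 intensity, every difference is STC minus M1C on the log2 scale, and ± gives limma's moderated standard error with n = 5 animals.

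Primary motor cortex sends the corticospinal tract to the spinal cord from large pyramidal neurons in layer 5, among them the giant Betz cells, whose thick axons are heavily myelinated. It has little granular layer 4 in the adult. Posterior superior temporal cortex is association cortex with a clear layer 4, and it exchanges most of its connections with other cortical areas. The hepatocyte growth factor receptor MET, which shapes dendrites and synapses of projection neurons, is known to be concentrated in temporal cortex of the developing macaque.

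The arrays were first set against their labels. After subtraction of the mean of each region and hemisphere, 18 of the 20 arrays correlated best with the other arrays of their own animal, with r between 0.25 and 0.678. The left M1C array of animal 3 had r = -0.098 with animal 3 and 0.253 with animal 4. The right STC array of animal 4 had r = 0.133 with animal 4 and 0.479 with animal 3. EIF1AY, a Y-linked translation factor gene, read 8.34 on the M1C array labelled female and 7.25 on the STC array labelled male. On the other arrays EIF1AY lay between 8.30 and 8.46 in males and between 6.83 and 7.87 in females, the highest female value being that of the right STC array of animal 3. Both arrays therefore went against their animal labels, and results are given over the 20 arrays as labelled and over 18 arrays without this pair. Over the 18 arrays, M1C of animal 3 rests on its right array alone and STC of animal 4 on its left array alone. The differences of these animals there set 1 hemisphere against a mean of left and right. The pair was set aside with its placement between the regions already known, so the 18-array values are not independent of that knowledge.

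Each array was also placed on a region score, the projection of its values onto the mean STC minus M1C difference of animals 1, 2 and 5, leaving out the array's own animal, with 0 midway between the regions. The left M1C array of animal 3 scored 0.336 and the right STC array of animal 4 scored -0.556. The other 9 STC arrays scored between -0.0051 and 0.422, and the other 9 M1C arrays between -0.625 and 0.193. The highest of these M1C scores belonged to the left array of animal 5, whose right M1C array scored -0.041. This array matched animal 5 by likeness (r = 0.502) and by EIF1AY (8.46). It went against no animal or sex label and differed in region measures alone, so it was kept, and the effect of leaving out animal 5 as a whole is given below.

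**Figure D1:**
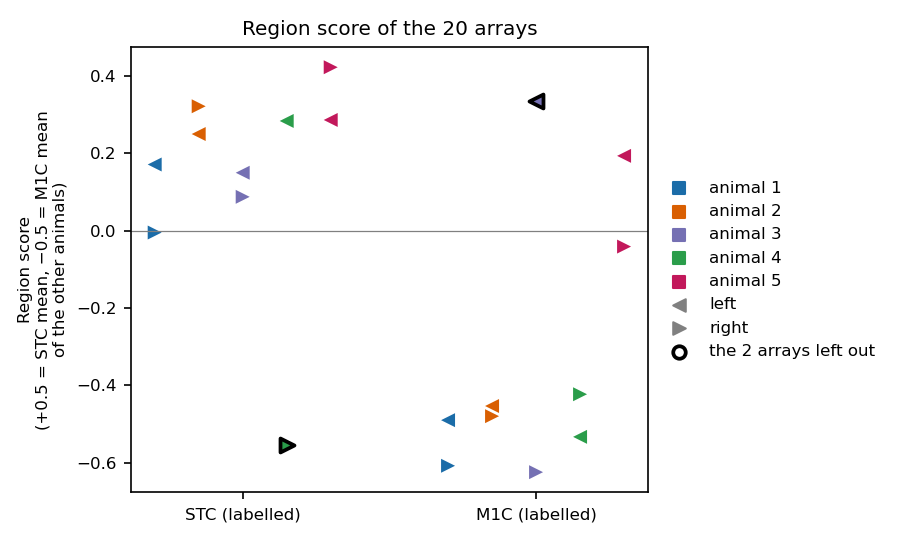
Region score of each of the 20 arrays, by labelled region and animal, with STC left of M1C, triangles pointing to the hemisphere, and the mean STC and mean M1C profiles of the other animals at equal distances above and below 0. The left M1C array of animal 3 (0.336) lies among the STC arrays and the right STC array of animal 4 (-0.556) lies among the M1C arrays.

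Markers of the labelled tissue were bright. SNAP25, a neuronal fusion protein, lay between 12.79 and 12.97 on the STC arrays and between 12.77 and 12.97 on the M1C arrays. Its mean stood at percentile 99.86 of the probe sets. The interneuron enzyme GAD1 and the astrocyte water channel AQP4 differed by -0.0017 and 0.12 over the 20 arrays (adjusted p = 0.987 and 0.32). AQP4 went against the astrocyte list, in which 13 of 20 genes were lower in STC and 7 higher over the 20 arrays (median -0.12). The myelin genes MBP and MOBP differed by -0.28 and -0.49 over the 20 arrays (adjusted p = 0.166 and 0.176). Without the pair they differed by -0.36 and -0.67 (adjusted p = 0.0317 and 0.0213). The meningeal gene OGN differed by 0.79 over the 20 arrays (adjusted p = 0.124). These markers therefore do not show that the regions were matched in cell makeup. The blood genes HBB and ALAS2 lay below the filter on low values.

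Over the 20 arrays, 221 of 24292 probe sets (0.91%) passed an adjusted p of 0.05, with 120 higher in STC (0.494%) and 101 lower (0.416%). With each array centred on its median, the split was 120 higher and 159 lower. All 221 had the same direction in 5 of 5 animals, a pattern that 19.9% of tested probe sets showed. Passing the test on the same 5 differences largely requires such agreement, here and over the 18 arrays, so it is no separate support. Over the 18 arrays, 2811 passed (11.6%), with 1295 higher (5.33%) and 1516 lower (6.24%), and 2761 of them had 1 direction in 5 of 5 animals, against 26.9% of tested probe sets. Of the 221, 218 passed in both sets with the same direction. The counts include probe sets that repeat the values of an earlier one, 21 of the 221 and 186 of the 2811. When the right STC array of animal 3 was left out as well, 2483 passed (10.2%), of which 2396 also passed over the 18 arrays. The 20-array calls lay close to the threshold, with adjusted p between 0.0218 and 0.05 for the 30 genes of largest difference described below. Leaving out 1 animal in turn left between 0 and 39 limma calls over the 20 arrays (3524 to 4477 at an unadjusted p under 0.05, with 0 calls without animal 1, 2, 4 or 5 and 39 without animal 3), and between 873 and 2719 over the 18 arrays, the 2719 being the count without animal 5. Without both animals 3 and 4, 0 probe sets passed in limma with the remaining 3 animals, and 4219 had an unadjusted p under 0.05.

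Counted by gene, with the brightest probe set for each of 11443 genes, 107 passed over the 20 arrays (0.935%) and 1546 over the 18 arrays (13.5%, with 5.28% higher and 8.23% lower). The median difference over these genes was -0.0014 and -0.0022. These are the shares against which the counts of gene groups below are to be read. Differences of at least 2-fold were few, with 3 probe sets over the 20 arrays. Over the 18 arrays there were 17, of which MET, EPHA3, SYT10 and PDYN were higher in STC and GLRA1, SV2C, CTXN3, CNDP1 and SYT2 were lower. The remaining 8 carried no single gene symbol, and some of them had identical differences. SYT10 averaged 5.80 in M1C and GLRA1 5.87 in STC, both under the filter level of 6.04, so they were tested through the region where they are higher and their folds are set against a level near background. Over the settings tried, the adjusted p of the 50 genes named by size ranged from 4.48e-05 to 0.658. None changed direction, but they were chosen for 1 direction in 5 of 5 animals of these data. That choice largely fixed the outcome in advance, so it is no separate support. In these bulk samples fewer cells of a type and less RNA per cell cannot be told apart.

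**Figure D2:**
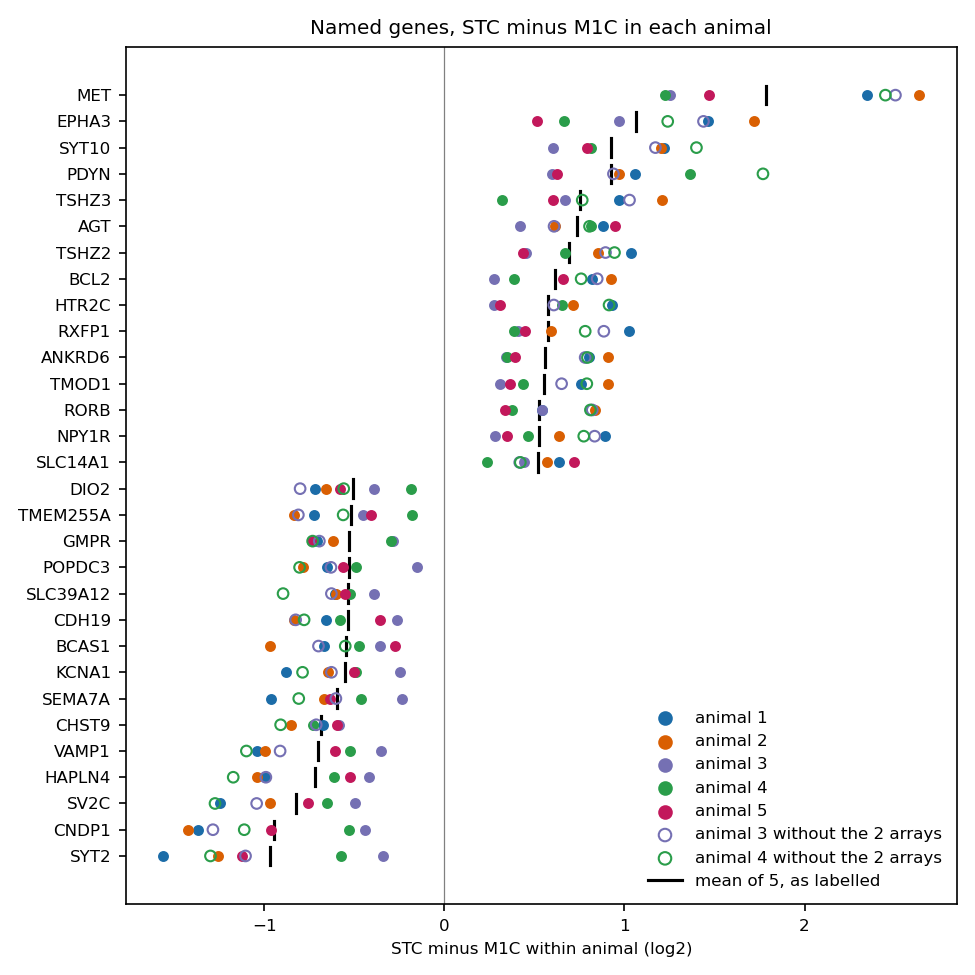
STC minus M1C difference of the named genes in each of the 5 animals, on the log2 scale, with filled points and a bar for the mean over the 20 arrays and open points for animals 3 and 4 over the 18 arrays. MET is the highest, with a mean of 1.79 over the 20 arrays and 2.28 over the 18 arrays, and SYT2 the lowest of the 30 genes first named (-0.97 and -1.27).

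Among receptors for growth factors, MET had the largest difference between the regions. MET read 9.17, 9.11, 8.90, 7.86 and 8.75 in STC of animals 1 to 5, against 6.82, 6.47, 7.64, 6.64 and 7.29 in M1C. The difference was 1.79 ± 0.21 over the 20 arrays (adjusted p = 0.0376) and 2.28 ± 0.15 over the 18 arrays (adjusted p = 0.00145), which corresponds to 3.45-fold and 4.86-fold. The 5 STC values lay above the 5 M1C values in both sets, as they or the reverse did for 2.6% of genes over the 20 arrays and 7.32% over the 18 arrays. Over the 18 arrays MET read 9.09 in STC of animal 4 and 6.39 in M1C of animal 3. In animal 5 the M1C arrays differed between the hemispheres, with 8.24 on the left and 6.34 on the right, while STC read 8.73 and 8.78.

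HGF, the ligand of MET, had the opposite sign, at -0.42 ± 0.063 over the 20 arrays (adjusted p = 0.0433) and -0.54 ± 0.072 over the 18 arrays (adjusted p = 0.00621). In the list of growth factor and peptide signalling genes, 42 were tested, of which 6 passed as higher and 1 as lower over the 20 arrays, and 10 as higher and 5 as lower over the 18 arrays. The median of the list was 0.031 over the 20 arrays and 0.039 over the 18 arrays. FGF1, a fibroblast growth factor of motor and sensory neurons, was lower over the 18 arrays (-0.68 ± 0.057), as was FGF9 (-0.40 ± 0.048). The neurotrophin BDNF was higher there (0.35 ± 0.053). AGT, the angiotensin precursor made by astrocytes, read 8.29, 8.07, 8.33, 7.91 and 8.10 in STC of animals 1 to 5, against 7.41, 7.46, 7.91, 7.09 and 7.15 in M1C, a difference of 0.73 ± 0.078 over the 20 arrays (adjusted p = 0.0375) and 0.77 ± 0.061 over the 18 arrays (adjusted p = 0.00175). AGT overlapped between the regions over the 20 arrays and was separate over the 18 arrays, as were 7.32% of genes there.

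Receptors for peptides and serotonin followed. NPY1R, a neuropeptide Y receptor, differed by 0.52 ± 0.086 over the 20 arrays (adjusted p = 0.0445) and 0.70 ± 0.078 over the 18 arrays (adjusted p = 0.00375). NPY5R, another receptor of that peptide, differed by 0.46 ± 0.068 over the 20 arrays (adjusted p = 0.0421) and 0.52 ± 0.062 over the 18 arrays (adjusted p = 0.00435). RXFP1, the relaxin receptor, read 9.32, 9.13, 9.01, 8.76 and 8.95 in STC of animals 1 to 5, against 8.29, 8.54, 8.60, 8.37 and 8.50 in M1C and differed by 0.57 ± 0.092 over the 20 arrays (adjusted p = 0.0436) and 0.75 ± 0.082 over the 18 arrays (adjusted p = 0.00345). HTR2C, a Gq-coupled serotonin receptor, read 7.30, 7.26, 7.05, 6.71 and 6.78 in STC of animals 1 to 5, against 6.37, 6.54, 6.77, 6.06 and 6.47 in M1C. Its difference was 0.58 ± 0.096 over the 20 arrays (adjusted p = 0.0449) and 0.70 ± 0.089 over the 18 arrays (adjusted p = 0.00564), and animals 4 and 5 had the lowest STC values. For HTR3A, the channel-forming serotonin receptor of interneurons, the difference was 0.67 ± 0.19 over the 20 arrays (adjusted p = 0.119) and 0.72 ± 0.18 over the 18 arrays (adjusted p = 0.0405), and STC of animal 1 stood alone at 8.07 against 6.60 to 7.21 in STC of the others.

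In the list of serotonin, dopamine, adrenergic, histamine and acetylcholine receptors, 29 genes were tested, of which 1 passed as higher and 1 as lower over the 20 arrays, and 6 as higher and 2 as lower over the 18 arrays. HTR1A, the inhibitory serotonin receptor, was lower in STC (-0.41 ± 0.06 with adjusted p = 0.0406 over the 20 arrays, and -0.47 ± 0.051 with adjusted p = 0.00341 over the 18). ADRA1A, an alpha-1 adrenergic receptor, was lower over the 18 arrays (-0.50 ± 0.051). CHRNB2, a nicotinic receptor subunit, was higher there (0.31 ± 0.061), as was the muscarinic receptor CHRM3 (0.25 ± 0.055). The list therefore held calls in both directions.

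Calls among neuropeptide precursors were mainly in the direction of STC. Of 16 tested, 1 passed as higher and 0 as lower over the 20 arrays, and 6 as higher and 1 as lower over the 18 arrays, with a median of 0.11 over the 20 arrays and 0.19 over the 18 arrays. PDYN, the precursor of the dynorphins, read 8.02, 7.93, 8.02, 7.35 and 7.60 in STC of animals 1 to 5, against 6.96, 6.96, 7.42, 5.98 and 6.98 in M1C, and its difference was 0.92 ± 0.11 over the 20 arrays (adjusted p = 0.0376) and 1.07 ± 0.14 over the 18 arrays (adjusted p = 0.00571). M1C of animal 4 had the lowest value, and STC of animal 4 overlapped M1C of animal 3 before the pair was set aside. Somatostatin (SST) differed by 0.44 ± 0.099 over the 20 arrays (adjusted p = 0.08) and 0.65 ± 0.084 over the 18 arrays (adjusted p = 0.00567), and CARTPT, the CART peptide precursor, by 0.53 ± 0.097 over the 20 arrays (adjusted p = 0.0526) and 0.63 ± 0.089 over the 18 arrays (adjusted p = 0.00735). TAC3, the neurokinin B precursor, was higher over the 18 arrays (0.37 ± 0.095), and NPPC, which encodes C-type natriuretic peptide, was lower (-0.40 ± 0.07).

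Guidance receptors moved in both directions. In the axon guidance list 41 genes were tested, of which 4 passed as higher and 1 as lower over the 20 arrays, and 11 as higher and 4 as lower over the 18 arrays. EPHA3, an ephrin receptor that repels or sorts growing axons, read 8.78, 9.28, 9.22, 8.16 and 8.88 in STC of animals 1 to 5, against 7.32, 7.56, 8.25, 7.50 and 8.37 in M1C. It differed by 1.07 ± 0.17 over the 20 arrays (adjusted p = 0.0436) and 1.27 ± 0.15 over the 18 arrays (adjusted p = 0.00442), and the M1C value of animal 5 (8.37) was the highest of that region. The 2 neuropilins, co-receptors for semaphorins, had opposite signs, NRP2 at 0.41 ± 0.061 over the 20 arrays (adjusted p = 0.0421) and 0.45 ± 0.047 over the 18 arrays (adjusted p = 0.00303) and NRP1 at -0.47 ± 0.07 over the 20 arrays (adjusted p = 0.0433) and -0.59 ± 0.074 over the 18 arrays (adjusted p = 0.00524). The semaphorin receptor PLXNC1 was higher in STC (0.42 ± 0.068 with adjusted p = 0.0436 over the 20 arrays, and 0.49 ± 0.059 with adjusted p = 0.00462 over the 18), while its ligand SEMA7A, a membrane-anchored semaphorin, was lower (-0.59 ± 0.093 with adjusted p = 0.0433 over the 20 arrays, and -0.74 ± 0.06 with adjusted p = 0.00203 over the 18). SEMA3A was higher as well, by 0.28 ± 0.047 over the 20 arrays (adjusted p = 0.0472) and 0.35 ± 0.045 over the 18 arrays (adjusted p = 0.00524). Over the 18 arrays the netrin receptors UNC5D (0.42 ± 0.079) and DCC (0.23 ± 0.045) were also higher.

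Adhesion genes of the cadherin, protocadherin and contactin families were called over the 18 arrays in both directions, with 5 of 22 tested higher and 5 lower, and 0 of 22 over the 20 arrays. Protocadherins PCDH11X (0.53 ± 0.076) and PCDH19 (0.42 ± 0.069) were higher, and CNTN6 (-0.80 ± 0.059) and PCDH17 (-0.36 ± 0.058) were lower. TENM2, a teneurin that binds latrophilins across synapses, differed by 0.62 ± 0.11 over the 20 arrays (adjusted p = 0.0534) and 0.85 ± 0.10 over the 18 arrays (adjusted p = 0.00443). Its 3 tested probe sets lay between 0.85 and 0.94 over the 18 arrays.

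**Figure D3:**
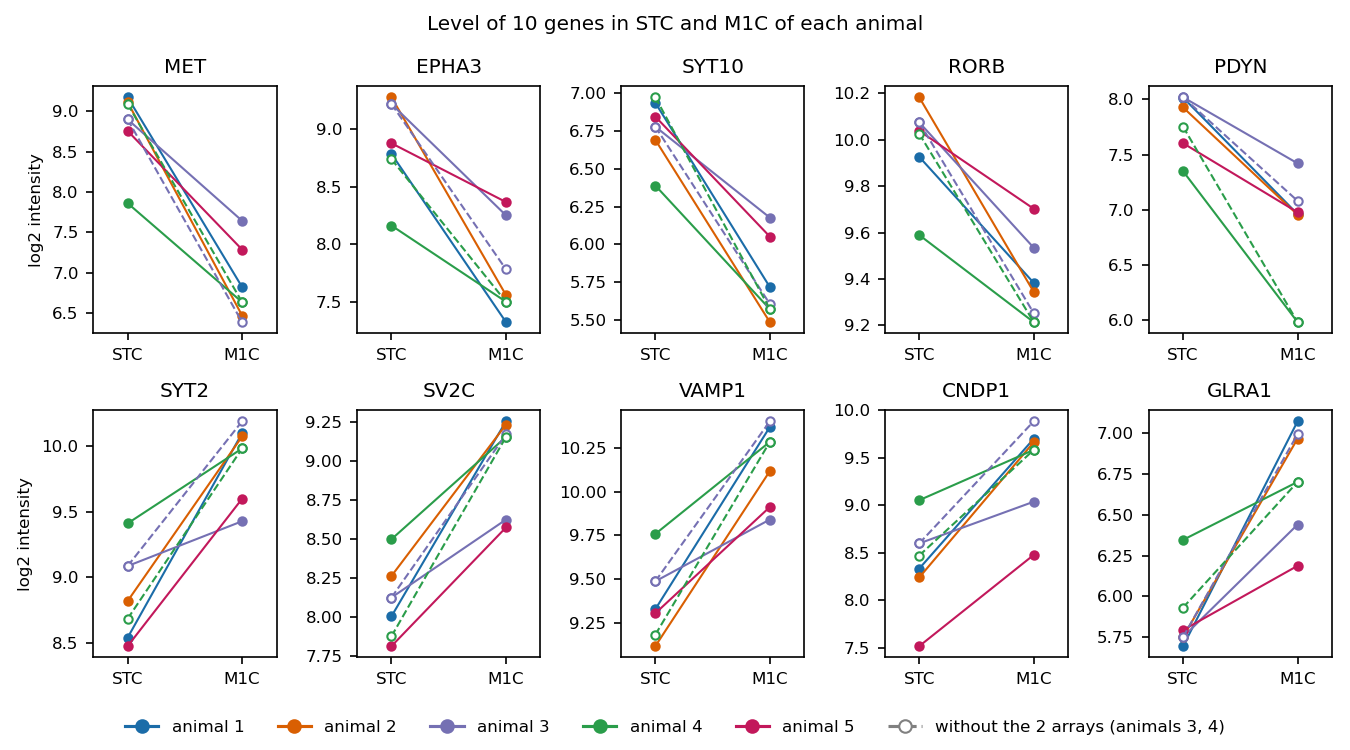
Levels of leading genes in STC (left) and M1C (right) of each animal, joined by animal, on the log2 intensity scale. Open points and dashed lines show animals 3 and 4 over the 18 arrays, and MET in STC reads 7.86 to 9.17 over the 20 arrays against 6.47 to 7.64 in M1C.

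RORB, a nuclear receptor of layer 4 neurons that receive thalamic input, read 9.93, 10.18, 10.07, 9.59 and 10.04 in STC of animals 1 to 5, against 9.38, 9.34, 9.53, 9.21 and 9.70 in M1C. The difference was 0.53 ± 0.073 over the 20 arrays (adjusted p = 0.0401) and 0.67 ± 0.08 over the 18 arrays (adjusted p = 0.00454). STC of animal 4 (9.59) lay below M1C of animal 5 (9.70) over the 20 arrays. The regions did not overlap over the 18 arrays, as was so for 7.32% of genes. TSHZ3, a teashirt zinc finger protein, read 8.23, 8.61, 8.44, 7.84 and 8.29 in STC of animals 1 to 5, against 7.26, 7.40, 7.77, 7.52 and 7.68 in M1C and differed by 0.75 ± 0.12 over the 20 arrays (adjusted p = 0.0433) and 0.92 ± 0.084 over the 18 arrays (adjusted p = 0.00259). Its relative TSHZ2, a marker of deep-layer neurons, differed by 0.69 ± 0.09 over the 20 arrays (adjusted p = 0.0376) and 0.83 ± 0.083 over the 18 arrays (adjusted p = 0.00267). NR2F1 (COUP-TFI), which sets the extent of motor against sensory areas in mouse cortex, was higher in STC over the 18 arrays, at 0.67 ± 0.056, and 0.52 over the 20 arrays (adjusted p = 0.0697).

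In the area patterning list of 17 tested genes, 2 passed as higher and 2 as lower over the 20 arrays, and 5 as higher and 5 as lower over the 18 arrays. CBLN2, a secreted synapse organiser, was lower in STC (-0.48 ± 0.08 with adjusted p = 0.0462 over the 20 arrays, and -0.64 ± 0.058 with adjusted p = 0.00259 over the 18). FGFR3, a fibroblast growth factor receptor, was also lower (-0.23 ± 0.039 with adjusted p = 0.0476 over the 20 arrays, and -0.26 ± 0.039 with adjusted p = 0.00825 over the 18). The retinoic acid receptor RARB was higher over the 18 arrays (0.40 ± 0.088). So were CRABP2 (0.31 ± 0.054), a retinoic acid carrier, and CYP26B1 (0.28 ± 0.05), an enzyme that degrades retinoic acid. These were the 3 of 12 retinoid genes that passed there, and 0 passed over the 20 arrays.

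Calls among layer markers ran both ways. Of 9 layer 4 genes, 2 passed as higher and 0 as lower over the 20 arrays, and 3 as higher and 1 as lower over the 18 arrays, and GRIK1, a kainate receptor subunit, rose with RORB (0.47 ± 0.077 with adjusted p = 0.044 over the 20 arrays, and 0.58 ± 0.066 with adjusted p = 0.00375 over the 18). CUX2, a homeobox gene of upper layers and layer 4, differed by 0.12 ± 0.084 over the 20 arrays (adjusted p = 0.477) and 0.22 ± 0.052 over the 18 arrays (adjusted p = 0.0354). Of 14 genes of layers 2 and 3, 1 passed as higher and 1 as lower over the 20 arrays, and 6 as higher and 3 as lower over the 18 arrays. SYT10, a calcium sensor of vesicle release, read 6.94, 6.69, 6.78, 6.39 and 6.84 in STC of animals 1 to 5, against 5.72, 5.49, 6.18, 5.57 and 6.05 in M1C. Its M1C mean lay under the filter level, so SYT10 is given by its levels here, although the counts of this list and of the vesicle release list include it.

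Markers of deep layers were called mostly in the direction of STC. Of 22 genes of layers 5 and 6, 3 passed as higher and 1 as lower over the 20 arrays, and 10 as higher and 1 as lower over the 18 arrays, with a median of 0.13 over the 20 arrays and 0.18 over the 18 arrays. FOXP2, a forkhead factor of deep-layer neurons whose mutation impairs human speech, differed by 0.34 ± 0.065 over the 20 arrays (adjusted p = 0.06) and 0.44 ± 0.044 over the 18 arrays (adjusted p = 0.00266). FOXP1, its close relative, was 0.16 and 0.23 and CHD3, a chromatin remodeller, was 0.17 and 0.23, the first value over the 20 arrays and the second over the 18. Together with FOXP2 these were the 3 of 13 speech-disorder genes that passed over the 18 arrays, all higher, and 0 passed over the 20 arrays. BCL11B (CTIP2), a factor of corticospinal neurons, had the opposite sign (-0.29 ± 0.049 with adjusted p = 0.0485 over the 20 arrays, and -0.32 ± 0.052 with adjusted p = 0.0114 over the 18). NR4A2, a nuclear receptor of layer 6 and claustrum that is also an immediate early gene, was higher over the 18 arrays (0.67 ± 0.10).

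SLC17A6, which encodes the vesicular glutamate transporter VGLUT2, read 8.21, 8.30, 8.04, 7.49 and 8.11 in STC of animals 1 to 5, against 7.30, 6.82, 7.64, 7.33 and 7.76 in M1C. Its difference was 0.66 ± 0.17 over the 20 arrays (adjusted p = 0.102) and 0.85 ± 0.14 over the 18 arrays (adjusted p = 0.0107). It led the list of excitatory neuron genes, 12 tested, of which 0 passed as higher and 0 as lower over the 20 arrays, and 4 as higher and 0 as lower over the 18 arrays. Postsynaptic scaffold genes were called in STC's direction over the 18 arrays in 8 of 24 tested, among them SHANK2 (0.29 ± 0.045) and LRRTM3 (0.31 ± 0.048), with 0 of 24 over the 20 arrays. Of 12 glutamate receptor genes 3 passed over the 18 arrays, GRIK1, GRM8 (0.39 ± 0.043) and GRM2 (0.19 ± 0.047), each higher. Among 20 interneuron genes 0 passed over the 20 arrays, and 4 were higher and 2 lower over the 18 arrays, SST being higher and PVALB lower.

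Calls among genes of large-axon and fast-firing neurons were lower in STC, and 2 of 18 members had positive differences. Of 18 tested, 0 passed as higher and 6 as lower over the 20 arrays, and 0 as higher and 13 as lower over the 18 arrays, and the median was -0.26 over the 20 arrays and -0.33 over the 18 arrays. SYT2, the calcium sensor of fast synchronous release, read 8.54, 8.82, 9.08, 9.41 and 8.47 in STC of animals 1 to 5, against 10.10, 10.07, 9.43, 9.98 and 9.60 in M1C. Its difference was -0.97 ± 0.16 over the 20 arrays (adjusted p = 0.0472) and -1.27 ± 0.069 over the 18 arrays (adjusted p = 0.000854). VAMP1, the vesicle SNARE of fast synapses, read 9.33, 9.12, 9.49, 9.76 and 9.31 in STC of animals 1 to 5, against 10.37, 10.12, 9.84, 10.28 and 9.91 in M1C and differed by -0.70 ± 0.10 over the 20 arrays (adjusted p = 0.0406) and -0.93 ± 0.072 over the 18 arrays (adjusted p = 0.00172). For both genes each STC value lay below each M1C value in both sets. Regions were separate in either direction for 2.6% of genes over the 20 arrays and 7.32% over the 18 arrays. For SYT2 the margin over the 20 arrays was narrow, with 9.41 in STC of animal 4 and 9.43 in M1C of animal 3. Both of these values include an array that was later set aside. For both genes the regions lay closest in animals 3 and 4 over the 20 arrays.

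SV2C, a vesicle glycoprotein of the release list, read 8.01, 8.26, 8.13, 8.50 and 7.81 in STC of animals 1 to 5, against 9.25, 9.23, 8.62, 9.15 and 8.57 in M1C, a difference of -0.83 ± 0.099 over the 20 arrays (adjusted p = 0.0376) and -1.06 ± 0.077 over the 18 arrays (adjusted p = 0.00154). Within the large-axon list, SPP1 (osteopontin), which marks large corticospinal neurons in macaque motor cortex, differed by -0.61 ± 0.14 over the 20 arrays (adjusted p = 0.0834) and -0.89 ± 0.081 over the 18 arrays (adjusted p = 0.00259). Parvalbumin (PVALB), the calcium buffer of fast-spiking interneurons, differed by -0.51 ± 0.097 over the 20 arrays (adjusted p = 0.0568) and -0.60 ± 0.059 over the 18 arrays (adjusted p = 0.00266), and the neurofilament light chain NEFL by -0.30 ± 0.068 over the 20 arrays (adjusted p = 0.08) and -0.42 ± 0.044 over the 18 arrays (adjusted p = 0.00307). HAPLN4, a link protein of perineuronal nets, read 8.09, 8.13, 8.02, 8.46 and 8.05 in STC of animals 1 to 5, against 9.09, 9.17, 8.44, 9.08 and 8.57 in M1C and differed by -0.72 ± 0.097 over the 20 arrays (adjusted p = 0.0379) and -0.95 ± 0.087 over the 18 arrays (adjusted p = 0.00259). It was the 1 perineuronal net gene of 14 that passed over the 20 arrays, with HAPLN2 and ADAMTS4 joining it over the 18 arrays, all lower. HAPLN2 is also made by oligodendrocytes and stands in the myelin list.

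In the vesicle release list, calls ran both ways. Of 37 tested, 1 passed as higher and 3 as lower over the 20 arrays, and 5 as higher and 5 as lower over the 18 arrays. Complexin CPLX1 (-0.38 ± 0.056) was lower over the 18 arrays and the SNARE STX1A (0.41 ± 0.08) was higher. SYNPR (synaptoporin), a vesicle membrane protein, differed by 0.50 ± 0.092 over the 20 arrays (adjusted p = 0.0526) and 0.67 ± 0.058 over the 18 arrays (adjusted p = 0.00226).

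Potassium channels divided by subunit. Of 50 tested, 1 passed as higher and 3 as lower over the 20 arrays, and 6 as higher and 11 as lower over the 18 arrays. KCNA1, the Kv1.1 channel of axons, read 10.02, 10.33, 10.41, 10.69 and 10.23 in STC of animals 1 to 5, against 10.90, 10.97, 10.65, 11.18 and 10.73 in M1C and differed by -0.55 ± 0.082 over the 20 arrays (adjusted p = 0.0421) and -0.69 ± 0.06 over the 18 arrays (adjusted p = 0.0023). KCNC1, the Kv3.1 channel that permits fast firing, was lower by the same test (-0.43 ± 0.065 with adjusted p = 0.0433 over the 20 arrays, and -0.56 ± 0.047 with adjusted p = 0.00206 over the 18). KCNS1, a silent subunit that modifies other channels, differed by -0.64 ± 0.14 over the 20 arrays (adjusted p = 0.0693) and -0.87 ± 0.06 over the 18 arrays (adjusted p = 0.00145). KCNA4, the Kv1.4 channel of inactivating currents, was higher (0.42 ± 0.065 with adjusted p = 0.0433 over the 20 arrays, and 0.54 ± 0.062 with adjusted p = 0.00416 over the 18).

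Sodium, calcium and HCN channel genes passed over the 18 arrays in 9 cases higher and 3 lower among 24, and in 0 over the 20 arrays. SCN1A, the sodium channel of fast-spiking interneurons and axons, was lower (-0.42 ± 0.055). SCN3A (0.47 ± 0.055) and SCN3B (0.58 ± 0.074), a pore-forming and an accessory sodium channel subunit, were higher. The T-type calcium channels CACNA1G (0.41 ± 0.075) and CACNA1H (-0.34 ± 0.05) had opposite signs.

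Calls among glycine receptor subunits ran both ways over the 18 arrays. GLRA1, the adult alpha subunit of spinal cord and brainstem, read 5.70, 5.75, 5.75, 6.35 and 5.79 in STC of animals 1 to 5, against 7.07, 6.97, 6.44, 6.70 and 6.19 in M1C. Its STC mean of 5.87 lay under the filter level, and so did its VFC mean of 5.76, so GLRA1 is given by its levels. GLRA2 (0.49 ± 0.11 with adjusted p = 0.0761 over the 20 arrays, and 0.64 ± 0.063 with adjusted p = 0.00266 over the 18) and GLRA3 (0.49 ± 0.091 with adjusted p = 0.0555 over the 20 arrays, and 0.59 ± 0.082 with adjusted p = 0.00682 over the 18), the alpha subunits found in forebrain, had positive differences. GLRB, the shared beta subunit, was lower over the 18 arrays (-0.25 ± 0.038). Among 13 GABA-A and glycine receptor genes 4 were higher and 3 lower over the 18 arrays, with GLRA1 counted among the lower, and 0 passed over the 20 arrays.

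Calls among myelin genes were lower in STC. All 31 tested members had a negative difference in both sets, with a median of -0.34 over the 20 arrays and -0.46 over the 18 arrays. Over the 20 arrays 2 passed, and over the 18 arrays 26 passed, all lower. The mean level of the list by animal was 8.35 to 9.01 in STC and 8.74 to 9.21 in M1C over the 20 arrays, and 8.35 to 8.80 in STC and 8.74 to 9.29 in M1C over the 18 arrays, lower in STC in 5 of 5 animals.

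CNDP1, the carnosinase of oligodendrocytes in primate brain, read 8.33, 8.24, 8.60, 9.05 and 7.52 in STC of animals 1 to 5, against 9.70, 9.66, 9.04, 9.58 and 8.48 in M1C and differed by -0.94 ± 0.15 over the 20 arrays (adjusted p = 0.0436) and -1.23 ± 0.071 over the 18 arrays (adjusted p = 0.000854). The M1C level of animal 5 (8.48) lay below STC levels of other animals, so the regions overlapped, while STC lay below M1C within each animal. BCAS1, a marker of myelin-forming oligodendrocytes, differed by -0.55 ± 0.096 over the 20 arrays (adjusted p = 0.05) and -0.63 ± 0.089 over the 18 arrays (adjusted p = 0.00736). UGT8, which makes the myelin lipid galactocerebroside, differed by -0.58 ± 0.14 over the 20 arrays (adjusted p = 0.0841) and -0.78 ± 0.098 over the 18 arrays (adjusted p = 0.00524). The major myelin protein genes MBP (-0.36 ± 0.082), MOBP (-0.67 ± 0.14), MOG (-0.60 ± 0.10) and MAG (-0.61 ± 0.12) were lower over the 18 arrays. KLK6, a secreted protease of oligodendrocytes, differed by -0.76 ± 0.14 over the 20 arrays (adjusted p = 0.0522) and -0.83 ± 0.12 over the 18 arrays (adjusted p = 0.0075).

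Precursor genes had a median near that of all genes. Of 13 oligodendrocyte precursor genes, 0 passed over the 20 arrays and 1 (OLIG1, -0.20 ± 0.053) over the 18 arrays, and the median of the list was -0.022 over the 20 arrays and -0.0023 over the 18 arrays. OLIG1 also stands in the myelin list and is counted among its calls. The difference between the 2 lists was not tested. The part of myelinating cells in the other negative differences, such as those of CDH19, PMP2 and TMEM144, was not tested either.

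CDH19, a cadherin of the oligodendrocyte and Schwann cell lineages, differed by -0.54 ± 0.082 over the 20 arrays (adjusted p = 0.0433) and -0.69 ± 0.073 over the 18 arrays (adjusted p = 0.00318). PMP2, a fatty acid binding protein of myelin, differed by -0.52 ± 0.12 over the 20 arrays (adjusted p = 0.0822) and -0.80 ± 0.086 over the 18 arrays (adjusted p = 0.00333), and the membrane protein gene TMEM144 by -0.51 ± 0.19 over the 20 arrays (adjusted p = 0.189) and -0.83 ± 0.11 over the 18 arrays (adjusted p = 0.00571). Of these 3 genes CDH19 passed over the 20 arrays, and all 3 passed over the 18 arrays.

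Astrocyte genes were called in both directions but leaned lower in STC, with a list median of -0.12 over the 20 arrays and -0.14 over the 18. Of the 20 genes, 13 had negative differences over the 20 arrays and 14 over the 18. The list median was negative in 5 of 5 animals in both sets. Of 20 tested, 1 passed as higher and 1 as lower over the 20 arrays, and 1 as higher and 6 as lower over the 18 arrays. AGT was the 1 higher member, while the glutamine synthetase gene GLUL (-0.30 ± 0.048) and the connexin GJB6 (-0.28 ± 0.044) were lower over the 18 arrays. Beyond the list, SLC39A12, a zinc importer, read 7.77, 7.42, 7.24, 7.31 and 7.26 in STC of animals 1 to 5, against 8.38, 8.02, 7.64, 7.83 and 7.82 in M1C and differed by -0.54 ± 0.046 over the 20 arrays (adjusted p = 0.0226) and -0.66 ± 0.057 over the 18 arrays (adjusted p = 0.00229). DIO2, the deiodinase that activates thyroid hormone in glia, read 7.89, 7.88, 7.85, 8.23 and 7.72 in STC of animals 1 to 5, against 8.61, 8.54, 8.24, 8.42 and 8.30 in M1C and differed by -0.51 ± 0.079 over the 20 arrays (adjusted p = 0.0433) and -0.66 ± 0.049 over the 18 arrays (adjusted p = 0.00154). SLC14A1, a urea transporter, was higher (0.52 ± 0.07 with adjusted p = 0.0376 over the 20 arrays, and 0.55 ± 0.056 with adjusted p = 0.0028 over the 18). KCNJ10, the Kir4.1 channel of glia, was lower (-0.47 ± 0.075 with adjusted p = 0.0436 over the 20 arrays, and -0.54 ± 0.059 with adjusted p = 0.00341 over the 18).

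Vascular genes passed in 1 of 21 cases over the 20 arrays and in 7 over the 18 arrays, all lower. ABCB1, the efflux pump of brain endothelium, differed by -0.33 ± 0.05 over the 20 arrays (adjusted p = 0.0432) and -0.38 ± 0.058 over the 18 arrays (adjusted p = 0.00945), and SLC2A1, its glucose transporter, by -0.23 ± 0.052 over the 20 arrays (adjusted p = 0.0779) and -0.31 ± 0.044 over the 18 arrays (adjusted p = 0.00771). Of 13 microglial genes 0 passed over the 20 arrays and 1 (CTSS, 0.25 ± 0.067) over the 18. Of 18 meningeal and choroid plexus genes 16 had positive differences and 2 passed in both sets, ISLR (0.44 ± 0.056 with adjusted p = 0.0376 over the 20 arrays, and 0.52 ± 0.063 with adjusted p = 0.00471 over the 18) and IGFBP2 (0.31 ± 0.054 with adjusted p = 0.0492 over the 20 arrays, and 0.40 ± 0.049 with adjusted p = 0.00482 over the 18). The mean level of that list by animal was 6.97 to 7.48 in STC and 6.90 to 7.14 in M1C. Over the 20 arrays the list median was -0.026 on the left and 0.27 on the right. In animals 1 to 5 it was 0.026, 0.34, -0.034, 0.059 and 0.34. OGN, the defining meningeal proteoglycan, differed by 0.79 ± 0.23 over the 20 arrays (adjusted p = 0.124) and 0.65 ± 0.28 over the 18 arrays (adjusted p = 0.173). The part of meningeal tissue in the genes higher in STC was not tested.

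Calls among genes of energy supply and stress were lower in STC. Of 32 respiratory chain subunits 13 passed over the 18 arrays, all lower, and 0 over the 20 arrays. The median was -0.12 over the 20 arrays and -0.15 over the 18 arrays. UQCRC1 of complex III (-0.24 ± 0.04) and NDUFV2 of complex I (-0.20 ± 0.043) were among them. Of 17 heat shock, hypoxia and metallothionein genes 6 passed over the 18 arrays and 0 over the 20, all lower, including HSPB1 (-0.40 ± 0.052) and MT3 (-0.24 ± 0.042). Of 22 immediate early genes 6 passed over the 18 arrays and 0 over the 20, all higher, including EGR2 (0.39 ± 0.06) and BTG2 (0.16 ± 0.041). Of 14 ribosomal protein genes 0 passed in either set, with medians of 0.021 and 0.01, and likewise 0 of the 2 blood genes above the filter.

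**Figure D4:**
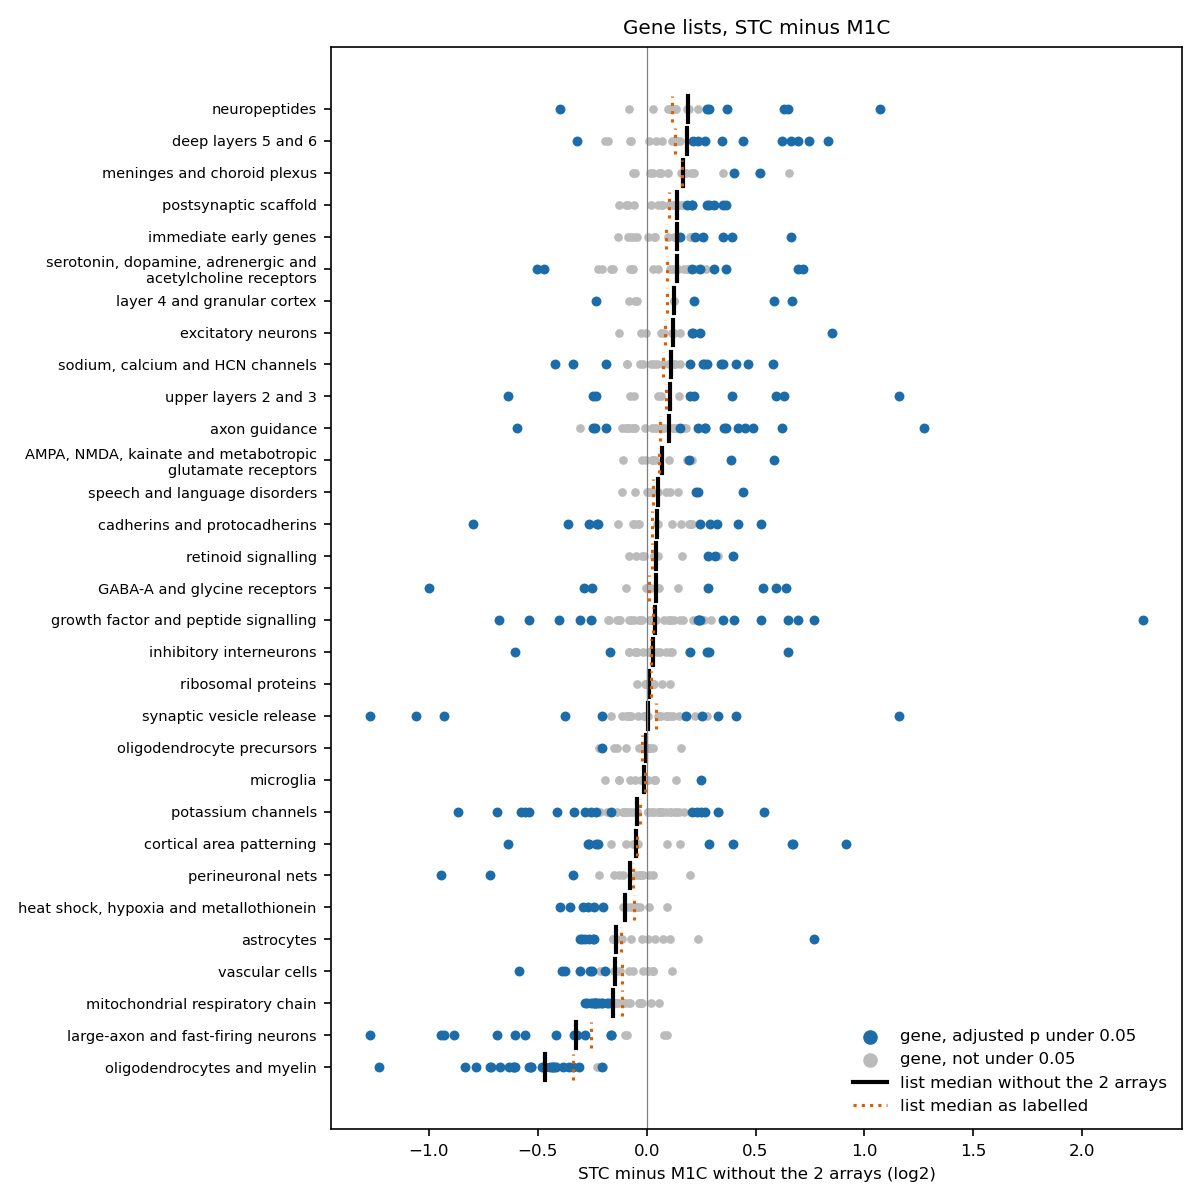
STC minus M1C difference of each list member over the 18 arrays (log2, blue where adjusted p was under 0.05), with the list median over the 18 arrays as a solid bar and over the 20 arrays as a dotted bar. The myelin list has the lowest median (-0.34 and -0.46), followed by large-axon and fast-firing neurons (-0.26 and -0.33).

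The remaining genes named by size stood outside the lists. BCL2, the anti-apoptotic mitochondrial protein, read 9.60, 9.68, 9.47, 9.47 and 9.52 in STC of animals 1 to 5, against 8.78, 8.75, 9.20, 9.08 and 8.86 in M1C and differed by 0.61 ± 0.096 over the 20 arrays (adjusted p = 0.0433) and 0.80 ± 0.049 over the 18 arrays (adjusted p = 0.000993). ANKRD6, a regulator of Wnt signalling, differed by 0.56 ± 0.095 over the 20 arrays (adjusted p = 0.0475) and 0.74 ± 0.073 over the 18 arrays (adjusted p = 0.00268), and TMOD1, which caps actin filaments, by 0.56 ± 0.091 over the 20 arrays (adjusted p = 0.044) and 0.69 ± 0.075 over the 18 arrays (adjusted p = 0.00333). CPNE4, a copine that binds membranes with calcium, differed by 0.52 ± 0.085 over the 20 arrays (adjusted p = 0.044) and 0.70 ± 0.079 over the 18 arrays (adjusted p = 0.00377). KLHL1, PTCHD1, GLIS3 and AGBL1 were positive over the 20 arrays with adjusted p above 0.05, and over the 18 arrays read 0.79 ± 0.082, 0.67 ± 0.078, 0.77 ± 0.12 and 0.67 ± 0.071.

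Among the lower genes, CHST9, a sulfotransferase of carbohydrate chains, had the smallest adjusted p over the 20 arrays. It read 7.09, 7.30, 6.91, 7.42 and 7.31 in STC of animals 1 to 5, against 7.76, 8.15, 7.49, 8.15 and 7.91 in M1C, a difference of -0.69 ± 0.051 over the 20 arrays (adjusted p = 0.0218) and -0.75 ± 0.056 over the 18 arrays (adjusted p = 0.00154). GMPR, a guanosine monophosphate reductase, read 7.02, 6.80, 6.82, 7.0 and 6.55 in STC of animals 1 to 5, against 7.72, 7.42, 7.11, 7.30 and 7.29 in M1C and differed by -0.53 ± 0.079 over the 20 arrays (adjusted p = 0.0432) and -0.70 ± 0.04 over the 18 arrays (adjusted p = 0.000854). POPDC3, a membrane protein of the Popeye family, differed by -0.53 ± 0.084 over the 20 arrays (adjusted p = 0.0436) and -0.69 ± 0.049 over the 18 arrays (adjusted p = 0.00154), and TMEM255A by -0.52 ± 0.091 over the 20 arrays (adjusted p = 0.0493) and -0.67 ± 0.068 over the 18 arrays (adjusted p = 0.00285). CTXN3, a cortexin, differed by -0.72 ± 0.14 over the 20 arrays (adjusted p = 0.056) and -1.13 ± 0.13 over the 18 arrays (adjusted p = 0.00435). PTGS1, the cyclooxygenase COX-1, differed by -0.66 ± 0.15 over the 20 arrays (adjusted p = 0.0795) and -0.93 ± 0.054 over the 18 arrays (adjusted p = 0.000854).

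The third region placed these genes further. In a fit of all 30 arrays with animal as block, 52 probe sets (0.214%) separated STC from VFC, and 159 (0.655%) without the pair. That comparison shares its STC arrays with the comparison to M1C. Among the 50 genes named by size 1 passed over all arrays and 9 without the pair. CHST9 was lower in STC than in VFC in both sets (-0.43, adjusted p = 0.0449, and adjusted p = 0.013 without the pair). MET differed by 1.83 between STC and VFC (adjusted p = 0.0587) and passed without the pair (adjusted p = 0.00367).

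Averaged over left and right per animal, MET ranged from 7.86 to 9.17 in STC over the 20 arrays and from 6.33 to 7.81 in VFC. Single arrays spread more widely. The 2 highest single VFC arrays for MET were the left ones of animals 2 and 4, at 8.40 and 8.43, while the right ones read 6.44 and 7.18. TSHZ3, HTR2C, RORB, SLC17A6 and TENM2 were also higher in STC than in VFC without the pair (adjusted p = 0.0351, 0.0431, 0.039, 0.0393 and 0.0461), and SLC39A12 and CNTN6 were lower (adjusted p = 0.0461 and 0.0176). SYT10, by contrast, read 6.39 to 6.94 in STC and 6.72 to 7.25 in VFC as averages per animal, a difference of -0.21 (adjusted p = 0.529). SYT2 read 8.47 to 9.41 in STC and 7.73 to 8.71 in VFC, again as averages per animal, a difference of 0.60 (adjusted p = 0.197).

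**Figure D5:**
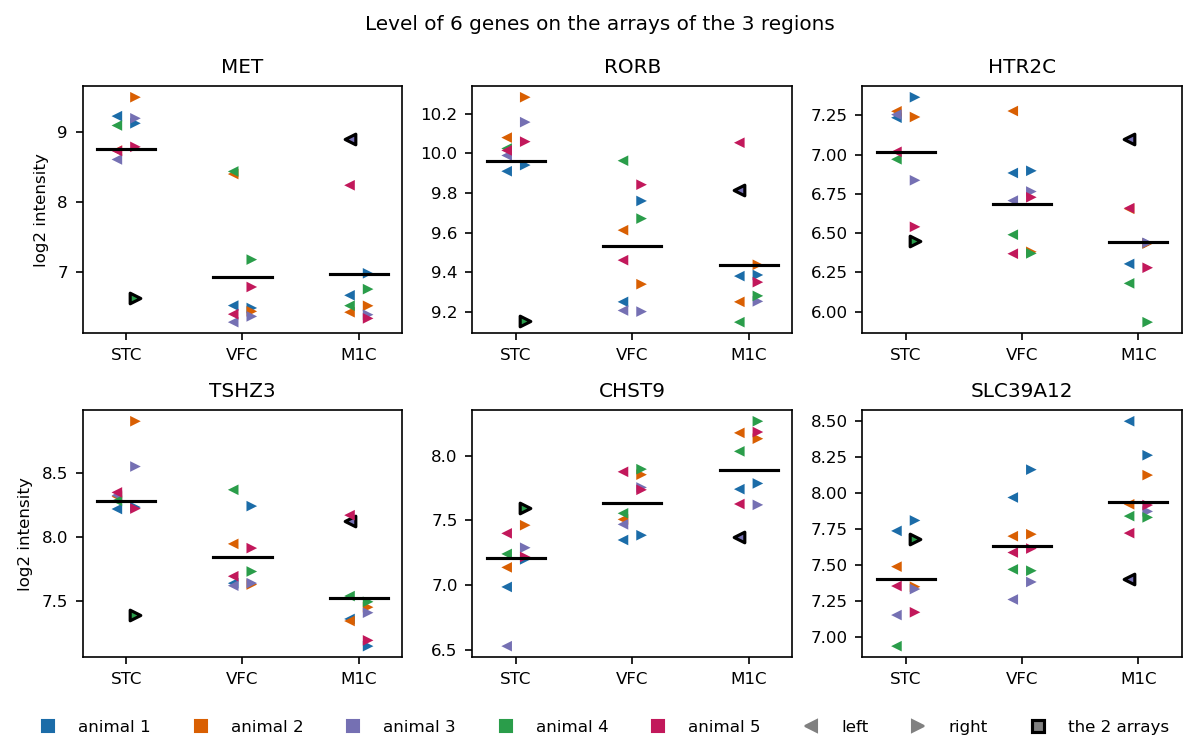
Level of 6 genes on each of the 30 arrays of STC, VFC and M1C, on the log2 intensity scale, with a bar at the region mean and outlines on the pair of arrays set aside. The left VFC arrays of animals 2 and 4 (8.40 and 8.43) and the left M1C array of animal 5 (8.24) stand above the other arrays of their regions for MET, apart from the outlined M1C array.

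Whether the region difference itself differed between the hemispheres was tested within animals. No probe set passed in limma (0 of 24292, 0%), 1071 had an unadjusted p under 0.05 where 1215 are expected by chance, and the smallest adjusted p was 0.263. Without the pair, with the 3 animals complete in both hemispheres, 0 passed and 1346 had an unadjusted p under 0.05. Among named genes the smallest p was that of SLC13A4, a sulfate transporter of meninges, with -0.073 on the left and 1.41 on the right. Its left minus right difference was -1.48 ± 0.23 (adjusted p = 0.292), negative in 5 of 5 animals. SERPIND1, heparin cofactor II, followed at -1.03 ± 0.17 (adjusted p = 0.364), and CLEC11A, a secreted growth factor of the lectin family, at 0.43 ± 0.076 (adjusted p = 0.404). Taken alone, the left arrays gave 0 calls and the right arrays 19, with 2614 and 3336 probe sets at an unadjusted p under 0.05. The left arrays include the M1C array of animal 3 and the right arrays the STC array of animal 4.

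The animals differed in how far apart their regions lay. The mean region score of STC minus that of M1C was 0.632 in animal 1, 0.753 in animal 2, 0.263 in animal 3, 0.342 in animal 4 and 0.278 in animal 5. Without the pair, animals 3 and 4 read 0.743 and 0.762, which left animal 5, the youngest at 2 years, the lowest. The arrays of the pair lay at the other region's end of this same score, as was known when they were set aside. Leaving them out therefore had to widen the gaps of animals 3 and 4. The left M1C array of animal 5, the highest-scoring of the other M1C arrays, was kept. The rank of animal 5 thus follows from this choice of arrays and is no separate result. With 1 animal of 2 years, the age of animal 5 and the placement of its left M1C array cannot be told apart.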

How the data were processed

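The deposited values are log2 intensities per probe set that the authors computed by RMA with the oligo package, per the submitters' processing notes, which give no version. RMA subtracts background, makes the arrays' distributions equal and summarises probes, which compresses differences of dim probe sets. Whether other arrays were normalized together with these 30, and the genome build behind the array, are not given in the sources used here, so no coordinates are printed. The arrays had medians of 6.57 to 6.64. Precision is limited by the 5 animals, since intensities carry no count depth.

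Of 40489 probe sets, 16020 had 1 gene symbol in the platform annotation, 490 had several and 23979 were unlisted and are unnamed here. A current RefSeq gene list held 14947 of the 15045 gene identifiers, and 0 symbols needed an update. Probe sets with a mean over the 30 arrays above the 40th percentile (6.04) were tested, 24292 in all, of which 2037 repeated the values of another to 9 decimals. A gene was represented by its brightest tested probe set.

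Left and right were averaged per animal and region. The 5 within-animal differences of STC minus M1C were tested against 0 with limma 3.58.1 in R 4.3.3 (with the data.table package, version 1.17.8), two-sided, with Benjamini-Hochberg adjustment over all tested probe sets and a threshold of 0.05. STC and M1C of an animal come from the same brain, and their deviations from the region means correlated at r = 0.427, 0.325, 0.329, 0.421 and 0.651 in animals 1 to 5, so animal is the block. The hemisphere test used left minus right of the same differences. STC and VFC were compared in a fit of all 3 regions with animal as block. The procedure was tested on simulated data.

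Genes were named by a rule. It took the 15 higher and 15 lower genes with the largest difference among those past the threshold in 5 of 5 animals, 10 more per direction from the fit over 18 arrays, up to 4 members per gene list by smallest p, and 3 genes for the hemispheres. Further list members were named after their values were seen. The comparison, the 32 gene lists and the members were chosen with earlier results of these data known. Alternatives covered the arrays and animals left out, hemisphere, block, filter, normalization and prior variance.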

Additional observations from a re-analysis of the deposited data

Results flagged for a closer look

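In 2 of 82 checks, 1 animal stood farther from the other 4 than Dixon's 95% limit of 0.71 allows as a share of the range, and chance marks about 1 in 20 such groups. The median STC minus M1C difference of the oligodendrocyte precursor list was 0.0783 in animal 5, against -0.062 to -0.024 in the others. The median of the serotonin, dopamine, adrenergic and acetylcholine receptor list was 0.22 in animal 1, against -0.0043 to 0.061 in the others. Over the 18 arrays these gaps were 0.527 and 0.556 of the range, under the limit.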

How the results depend on the processing

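The number of probe sets called over the 20 arrays depended on most choices. The 221 calls became 2811 without the left M1C array of animal 3 and the right STC array of animal 4, and 2483 without the right STC array of animal 3 as well. Left arrays alone gave 0 and right arrays alone 19. Leaving out each animal gave 0 to 39. Without the pairing by animal (no replicate block) limma called 0, with 2969 at an unadjusted p under 0.05. All 3 regions in 1 fit gave 574, no filter on low values 0 (5524 unadjusted), a filter at the 20th percentile 0 (5224 unadjusted), a filter at the 60th percentile 585, and a prior variance with an intensity trend 655. Quantile normalization of the 20 arrays (190) and centring on the median (279) stayed within 1.5 times, but centring moved the lower calls to 159, against 101, with 120 higher in both. Alternatives chosen after seeing the data were the 18 arrays with each animal left out (873 to 2719), the 18 arrays with all 3 regions in 1 fit (3057), and the set without animals 3 and 4 (0, with 4219 unadjusted). The cause of these shifts was not tested. Among the 50 named genes, 31 passed as labelled and 50 without either set of arrays, none of these reversed under the 24 alternatives, and 0 passed under 8 planned ones and without animals 3 and 4. The hemisphere test gave 0 calls under each of its 7 alternatives. STC against VFC called 1 of the named genes, and 9 without the 2 arrays. Values near the filter level, such as SYT10 in M1C and GLRA1 in STC, are limited by background.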
